A study of Mus musculus with 12 samples.

Results

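Neuronal nicotinic acetylcholine receptors were followed through 8 subunit genes, Chrna3, Chrna4, Chrna5, Chrna6, Chrna7, Chrnb2, Chrnb3 and Chrnb4. They were taken by symbol from a table of 25674 Ensembl genes, and all 8 had a row. RNA came from spiral ganglion neurons, the auditory neurons of the inner ear, of mouse embryos at E14.5. In the 6 control samples the embryos carried Neurod1Cre and the Rosa26 tdTomato reporter. In the 6 samples labelled ISL1CKO they also carried Isl1 loxP/loxP, so that Cre can remove a part of Isl1 in cells that express Neurod1. The Cre and the reporter were therefore shared by both groups, and only the floxed Isl1 alleles differed. Cre came from a Neurod1 BAC transgene, which acts wherever that transgene is active, and Isl1 encodes a LIM homeodomain transcription factor of sensory neurons. Each sample held 100 sorted tdTomato+ cells from both inner ears of 1 embryo, of either sex, from 4 litters on a mixed background, and which litter gave which library is not stated. A label tag calls the samples technical replicates although each is described as 1 embryo, so p-values measure the spread between these samples.

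These receptors are pentameric cation channels opened by acetylcholine, and the subunits chosen set their affinity, calcium entry and desensitization. The products of Chrna3, Chrna4 and Chrna6 form the acetylcholine site together with that of Chrnb2 or Chrnb4. The products of Chrna5 and Chrnb3 are accessory subunits, and the product of Chrna7 can form a channel alone. Receptors of the Chrna4 and Chrnb2 products prevail in brain, and those of the Chrna3 and Chrnb4 products in autonomic ganglia. In the mature cochlea, cholinergic olivocochlear fibres contact the dendrites of auditory neurons and, through the Chrna9 and Chrna10 products, the outer hair cells.

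Total counts were 11895603 to 13857480 per library. A level is given in CPM, the count scaled to library size, and 3 counts, taken as the floor for counting error only, corresponded to at least 0.219 CPM. A log2 fold change of the libraries labelled ISL1CKO over controls is written log2FC, and SE is its standard error. Isl1 itself was at 1391 ± 184 CPM in the libraries labelled ISL1CKO and 1538 ± 217 CPM in controls (SD, n = 6), a log2FC of -0.15, SE 0.11 (edgeR adjusted p = 0.460). Counts over the whole gene do not check the deletion of a part of it, so the genotype rests on the labels. The libraries labelled ISL1CKO 2, 3 and 5 held both Xist at 62.9 to 132 CPM and Y-linked transcripts at a mean of 35.7 to 87.3 CPM, although each is described as 1 embryo. Each call of a receptor subunit or other cholinergic gene is therefore also given without them. The spiral ganglion neuron markers were abundant in all libraries, with a summed level of 14368 to 16592 CPM in controls and 9765 to 12706 CPM in the others, where 6 of the 12 genes were called lower and 1 was called higher (6 and 2 without ISL1CKO 2, 3 and 5). In these bulk samples fewer cells of a type and less RNA per cell cannot be told apart.

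Among the 8 genes, Chrna6 and Chrna4 were lower and Chrna3 and Chrnb4 higher in the libraries labelled ISL1CKO. Chrna6 was near absent there, Chrna4 stood at 0.622 of the control mean, Chrna3 at 1.66 times and Chrnb4 at 4.30 times. The calls were made in edgeR's quasi-likelihood test at an adjusted p under 0.05, where 10.2% of the 14813 tested genes passed, 5.19% lower and 5.01% higher. Of the 8 genes, 6 passed the filter on low counts and 4 of these 6 were called, 2 in each direction. Their median log2FC was 0.22, against 0.0045 over all tested genes. Without the libraries labelled ISL1CKO 2, 3 and 5, the Chrna6 call alone remained, so that 1 of the 4 calls held with 3 libraries against 6.

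**Figure D1:**
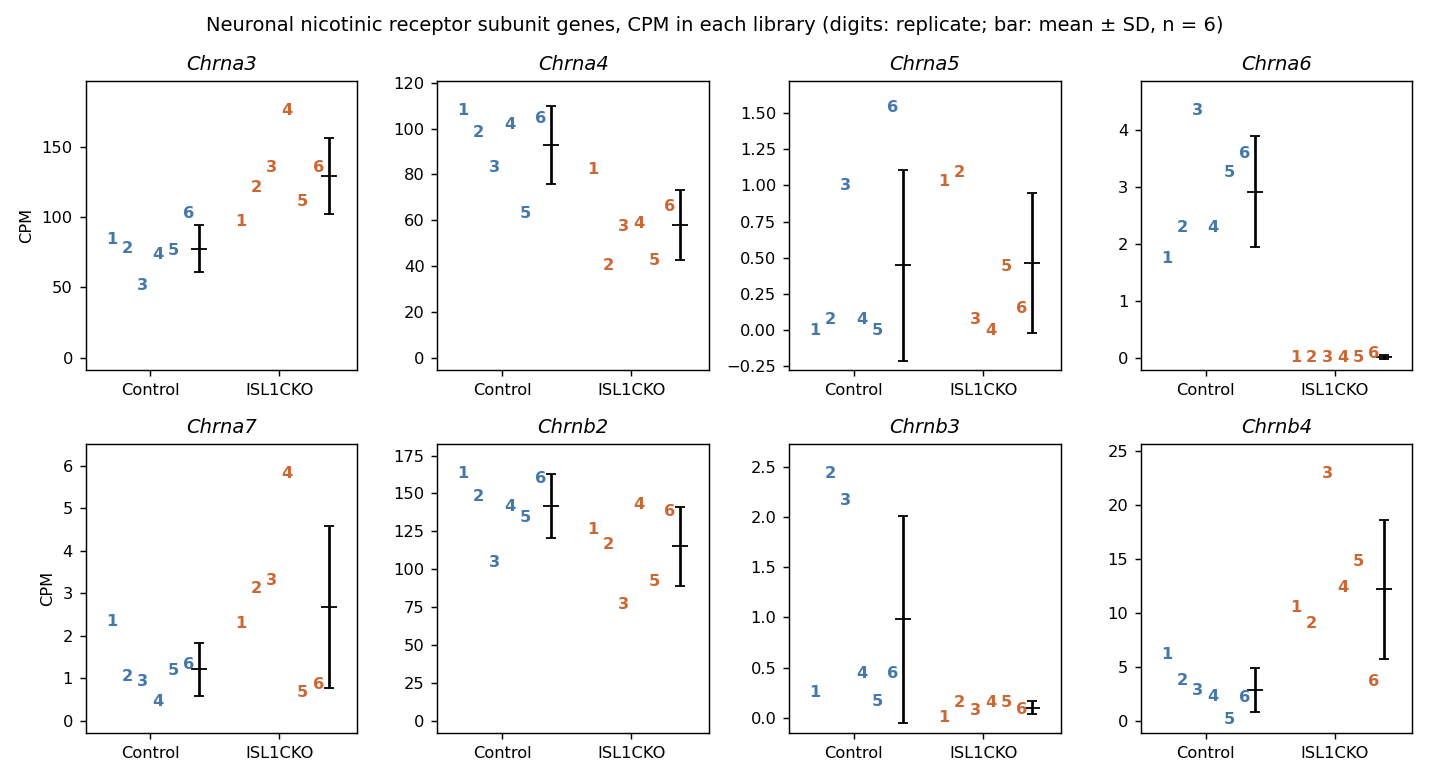
Level of each of the 8 subunit genes in CPM (vertical axis, each panel with its own linear scale) in the 6 control and 6 ISL1CKO libraries, with each digit marking a replicate and the bar the mean ± SD. Chrna6 is at 0 in 5 ISL1CKO libraries, and Chrna3 and Chrnb4 are above all controls in 5 of 6.

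Chrna6 encodes a ligand-binding subunit known from dopaminergic and retinal neurons. It lies on chromosome 8 at 27403212 to 27413944 (GRCm38, minus strand, ENSMUSG00000031491). Control libraries 1 to 6 held 21, 31, 52, 31, 41 and 49 counts of Chrna6. The libraries labelled ISL1CKO held 0, 0, 0, 0, 0 and 1 counts. All 6 controls lay above all 6 others, as did the levels of 6.78% of tested genes in one direction or the other. The Chrna6 control mean was 2.92 ± 0.972 CPM (SD, n = 6), and with the others at or under 3 counts per library the gene was at least 12.8-fold lower (edgeR adjusted p = 1.53e-05). Without ISL1CKO 2, 3 and 5 the call held (edgeR adjusted p = 0.00291). It also held with each library left out in turn, at edgeR adjusted p of 4.23e-05 to 2.45e-04.

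Chrnb3, the accessory partner often found with the Chrna6 product, is its neighbour on chromosome 8 at 27368711 to 27399730 (plus strand, ENSMUSG00000031492). Control libraries 1 to 6 held 3, 33, 26, 6, 2 and 6 counts of Chrnb3, and the libraries labelled ISL1CKO held 0, 2, 1, 2, 2 and 1. The groups met at 2 counts, and only controls 2 and 3 held more than 6 counts. The control mean was 0.984 ± 1.03 CPM (SD, n = 6), so with the floor of 3 counts per library the level was at least 4.32-fold lower in the libraries labelled ISL1CKO. Chrnb3 did not pass the filter on low counts, and with no filter it missed the threshold (edgeR adjusted p = 0.0512). The tested protein-coding genes that flank this pair were looked up after its values were seen. Eif4ebp1, 92.0 kb away, fell with a log2FC of -1.22 (edgeR adjusted p = 0.0263; 0.0987 without ISL1CKO 2, 3 and 5), while Unc5d, 1233 kb away on the other side, was at 0.68 (edgeR adjusted p = 0.319).

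Chrna4 encodes the ligand-binding subunit of the main high-affinity nicotine receptor of brain. It lies on chromosome 2 at 181018380 to 181043546 (minus strand, ENSMUSG00000027577). Chrna4 was at 108, 98.5, 82.9, 102, 62.9 and 104 CPM in controls 1 to 6. It was at 82.0, 40.5, 57.4, 58.6, 42.7 and 66.1 CPM in the libraries labelled ISL1CKO. Of the controls, 5 lay above all libraries of the other group, and control 5 was the exception. Means were 93.0 ± 17.1 and 57.9 ± 15.4 CPM (SD, n = 6), for a log2FC of -0.68, SE 0.18 (edgeR adjusted p = 0.0219). The call was lost without control 1 (edgeR adjusted p = 0.0501), control 6 (0.0511) or ISL1CKO 5 (0.0526). Without ISL1CKO 2, 3 and 5 the log2FC of Chrna4 was -0.44 (edgeR adjusted p = 0.239).

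Chrnb2 encodes the usual partner of the Chrna4 product. It lies on chromosome 3 at 89746195 to 89764632 (minus strand, ENSMUSG00000027950), where Adar overlaps it on the opposite strand, so its count is uncertain. Chrnb2 was at 163, 148, 105, 142, 134 and 159.6 CPM in controls 1 to 6. It was at 126, 116, 76.5, 143, 91.7 and 138 CPM in the libraries labelled ISL1CKO, so the groups overlapped widely. Means were 142 ± 21.3 and 115 ± 26.2 CPM (SD, n = 6), and the log2FC of -0.30, SE 0.15, was not past the threshold (edgeR adjusted p = 0.251).

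Chrna3 encodes the ligand-binding subunit of the ganglionic receptor and was the most abundant subunit gene per exon length in the libraries labelled ISL1CKO. It lies on chromosome 9 at 55010111 to 55026562 (minus strand, ENSMUSG00000032303). Chrna3 was at 84.2, 77.8, 51.6, 73.7, 76.3 and 102 CPM in controls 1 to 6. It was at 97.1, 121, 135, 176, 111 and 135 CPM in the libraries labelled ISL1CKO. Of these, 5 exceeded every control, and ISL1CKO 1 lay below control 6. Means were 77.6 ± 16.4 and 129 ± 27.0 CPM (SD, n = 6), for a log2FC of 0.73, SE 0.16 (edgeR adjusted p = 0.00774). Without ISL1CKO 2, 3 and 5 the log2FC was 0.80 and just missed the threshold (edgeR adjusted p = 0.0526). With the marker levels of macrophages and of Schwann cells as covariates it was 0.58 (edgeR adjusted p = 0.103). The summed level of 8 macrophage markers ran from 1.48 to 347 CPM in controls and from 0.656 to 730 CPM in the other group. ISL1CKO 4 was highest both in these markers and in Chrna3. The macrophage markers summed to 0.931 and 0.656 CPM in ISL1CKO 2 and 5, with Chrna3 at 121 and 111 CPM. In control 1 they summed to 347 CPM, with Chrna3 at 84.2 CPM. The 8 Schwann cell and satellite glia markers summed to 31.8 to 185 CPM in controls and 35.0 to 258 CPM in the others. Their sum was highest in ISL1CKO 2 and 5, at 258 and 233 CPM. It was 66.1 CPM in ISL1CKO 4 and 46.9 CPM in control 1. With each library left out in turn the Chrna3 call held, at edgeR adjusted p of 0.00472 to 0.0207. The part of other cells in the Chrna3 result was not tested further.

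Chrnb4 encodes the partner that gives the ganglionic receptor its slow desensitization. It lies beside Chrna3 on chromosome 9 at 55028154 to 55048779 (minus strand, ENSMUSG00000035200), and the annotated Gm47877 overlaps it on the opposite strand. Chrnb4 was at 6.15, 3.70, 2.75, 2.22, 0.0793 and 2.12 CPM in controls 1 to 6. It was at 10.5, 9.0, 23.0, 12.4, 14.7 and 3.66 CPM in the libraries labelled ISL1CKO. Of these, 5 exceeded every control, and ISL1CKO 6 lay below controls 1 and 2. Means were 2.84 ± 2.01 and 12.2 ± 6.45 CPM (SD, n = 6), for a log2FC of 2.10, SE 0.60 (edgeR adjusted p = 0.0384). The call was lost in 9 of 12 fits that left out 1 library, each except controls 1 and 5 and ISL1CKO 6, with an edgeR adjusted p of at most 0.0837. Without ISL1CKO 2, 3 and 5 the log2FC of Chrnb4 was 1.63 (edgeR adjusted p = 0.302). With the replicate number as a block it was 2.21 (edgeR adjusted p = 0.0900), with no filter on low counts 2.10 (edgeR adjusted p = 0.0526), and with the marker covariates 2.46 (edgeR adjusted p = 0.0659).

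Chrna5 is the third gene of this cluster, at 54980880 to 55007779 on the plus strand (ENSMUSG00000035594), and RefSeq extends it to 55011420, into Chrna3. It was scarcely detected. Controls held 0, 1, 12, 1, 0 and 21 counts of Chrna5 and the libraries labelled ISL1CKO 13, 14, 1, 0, 6 and 2. The totals of 35 and 36 counts were nearly the same, and Chrna5 did not pass the filter on low counts. With no filter, Chrna5 had a log2FC of 0.044, SE 1.17 (edgeR adjusted p = 0.993), so a difference in either direction was not detectable at this depth. The tested protein-coding genes that flank the cluster were also looked up after its values were seen. Psma4, 22.9 kb away on the Chrna5 side, had a log2FC of 0.031 (edgeR adjusted p = 0.855). Ube2q2, 100.1 kb beyond Chrnb4, had one of -0.46 (edgeR adjusted p = 0.228).

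Chrna7, the subunit of the fast, calcium-permeable receptor that can assemble alone, lies on chromosome 7 at 63098692 to 63212569 (minus strand, ENSMUSG00000030525), where Gm44741 overlaps it on the same strand. Controls held 28, 14, 11, 6, 15 and 18 counts of Chrna7 and the libraries labelled ISL1CKO 29, 40, 44, 78, 9 and 11. In CPM, replicates 2, 3 and 4 of the latter were above every control, while replicates 1, 5 and 6 were within the control range. Means were 1.21 ± 0.626 and 2.67 ± 1.90 CPM (SD, n = 6). The log2FC of 1.14, SE 0.57, was not past the threshold (edgeR adjusted p = 0.242).

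The sequence before the start of Chrna3 is shown because Chrna3 and Chrnb4 are neighbours that were both higher. It was taken from RefSeq on GRCm38.p6. Capitals mark the E-box CANNTG, the motif of basic helix-loop-helix factors. The homeodomain core TAATTA and the LIM homeodomain core CTAATG were searched on both strands too. The 250 bases before the Chrna3 start, chr9:55026563-55026812 on the minus strand, read as follows.
Chrna3: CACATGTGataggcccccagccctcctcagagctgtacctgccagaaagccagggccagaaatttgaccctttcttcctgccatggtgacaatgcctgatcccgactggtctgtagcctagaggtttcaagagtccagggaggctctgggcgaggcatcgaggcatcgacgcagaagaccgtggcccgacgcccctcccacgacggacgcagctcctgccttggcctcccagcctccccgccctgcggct
Its 2 E-boxes overlap each other at the far end, 250 and 248 bases before the start. The window of Chrnb4 falls largely in an exon of a longer transcript, so only the surroundings of its 2 E-boxes are shown, which begin 71 and 14 bases before the start.
Chrnb4, chr9:55048598-55048627, minus strand: acagcagcttccCAGGTGgggagcacaggc
Chrnb4, chr9:55048545-55048570, minus strand: cagagagactgcCAGCTGggacagac
Neither homeodomain core was present in the windows of Chrna3, Chrnb4, Chrna4, Chrnb2, Chrna7 or Chrna5. Of 32851 RefSeq windows of this length, 66.2% held an E-box, 4.84% TAATTA and 6.36% CTAATG. The Chrna4 window lies within the annotated span of the gene and overlaps a Chrna4 exon by 128 bases. It held none of the motifs and had a GC content of 74.4%, against 63.2% for Chrna3 and 61.2% for Chrnb4. RefSeq windows were used for these 6 genes, and none was available for Chrna6 and Chrnb3.

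Levels of different genes were compared per kb of merged exon, in CPM per kb. In controls, 3 genes stood far above the rest, Chrna4 at 18.5 ± 3.399, Chrnb2 at 16.9 ± 2.54 and Chrna3 at 14.7 ± 3.11 CPM per kb (SD, n = 6). Chrna6 followed at 1.00 ± 0.335, Chrnb4 at 0.762 ± 0.540 and Chrna7 at 0.268 ± 0.139 CPM per kb. Chrnb3 at 0.154 ± 0.162 and Chrna5 at 0.143 ± 0.211 CPM per kb were the lowest. In the libraries labelled ISL1CKO the order began with Chrna3 at 24.5 ± 5.12, then Chrnb2 at 13.7 ± 3.13 and Chrna4 at 11.5 ± 3.07 CPM per kb (SD, n = 6). Chrnb4 came next at 3.28 ± 1.73 and Chrna7 at 0.593 ± 0.422 CPM per kb. Chrna5 at 0.148 ± 0.155, Chrnb3 at 0.0158 ± 0.00962 and Chrna6 at 0.00437 ± 0.0107 CPM per kb closed the order.

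**Figure D2:**
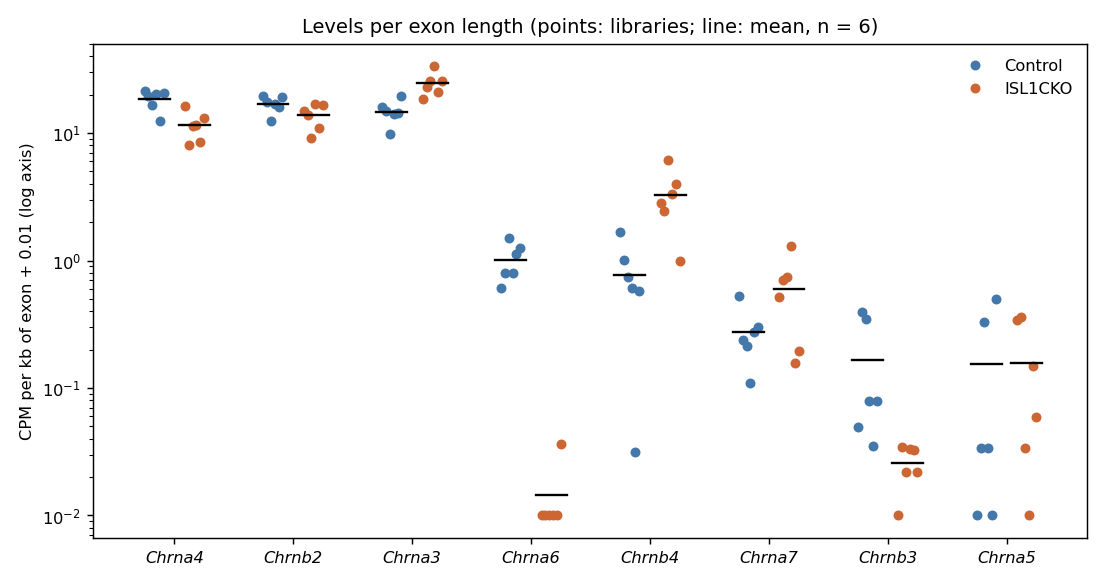
Level of each subunit gene per kb of exon, as CPM per kb + 0.01 on a log axis, for control and ISL1CKO libraries; points are libraries and lines are means of 6. Chrna4, Chrnb2 and Chrna3 lie above 8 CPM per kb in every library, and Chrna6 drops from about 1 CPM per kb to the bottom of the axis.

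Of the 14 pairs of neighbours in these 2 orders, 5 had the same order in all 6 libraries, which gives the smallest p of the exact sign-flip test (p = 0.0312, adjusted p = 0.0875 over 14, 2-sided). In controls this was Chrna3 above Chrna6. In the libraries labelled ISL1CKO it was Chrna3 above Chrnb2, Chrna4 above Chrnb4, Chrnb4 above Chrna7 and Chrna7 above Chrna5. With 6 libraries no pair could pass the adjusted threshold at that smallest p with 5 pairs there, so the test does not show that any neighbours were alike. The log2 difference of Chrna3 over Chrna6 in controls was 3.90 ± 0.676 (SD, n = 6). Per kb of coding sequence the control order began Chrnb2, Chrna3, Chrna4. The summed level of the 8 genes was 52.5 ± 8.03 CPM per kb in controls and 53.8 ± 7.54 in the libraries labelled ISL1CKO (SD, n = 6). Within that sum Chrna3 made up 28.0% ± 3.42 in controls and 45.4% ± 5.58 in the others (SD, n = 6). Chrna4 made up 35.3% ± 4.02 and 21.4% ± 5.11, and Chrnb4 1.41% ± 0.928 and 6.24% ± 3.46 (SD, n = 6).

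Ratios of partner subunits were taken within each library, with 0.5 CPM added to both levels. Chrnb4 stood at 0.0406, 0.0282, 0.0309, 0.0191, 0.00431 and 0.0164 of Chrnb2 in controls 1 to 6. It stood at 0.0873, 0.0816, 0.304, 0.0901, 0.165 and 0.0300 of Chrnb2 in the libraries labelled ISL1CKO, of which ISL1CKO 6 alone lay among the controls. The log2 ratio was higher by 2.38 in the libraries labelled ISL1CKO (exact permutation test, 2-sided, p = 0.00649, adjusted p = 0.0325 over 5 pairs). The difference was lost without ISL1CKO 3 or ISL1CKO 5 (exact permutation adjusted p = 0.0541 for both) and without ISL1CKO 2, 3 and 5 (1.70, exact permutation adjusted p = 0.268).

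The other ratios did not pass. The log2 ratio of Chrna3 to Chrnb4 was lower by 1.33 (exact permutation p = 0.0498, adjusted p = 0.124), with 4.83 ± 1.23 in controls and 3.50 ± 0.883 in the others (SD, n = 6). Without ISL1CKO 6, that difference was -1.64 and passed (exact permutation adjusted p = 0.0379). The log2 ratio of Chrna4 to Chrnb2 differed by -0.38 (exact permutation p = 0.0909, adjusted p = 0.152) and that of Chrna5 to Chrna3 by -0.61 (exact permutation p = 0.301, adjusted p = 0.376). That of Chrna7 to Chrna3 was -5.57 ± 0.487 in controls and -5.57 ± 0.832 in the others (SD, n = 6; exact permutation p = 1). Chrna6 to Chrnb3 was not compared, as both were at or under 3 counts in all libraries labelled ISL1CKO. The ratio of Chrna3 to Chrna4, chosen after their values were seen and not tested, had a mean of 0.851 ± 0.212 in controls and 2.36 ± 0.683 in the libraries labelled ISL1CKO (SD, n = 6). ISL1CKO 1 lay below control 5, and the other libraries labelled ISL1CKO lay above every control.

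**Figure D3:**
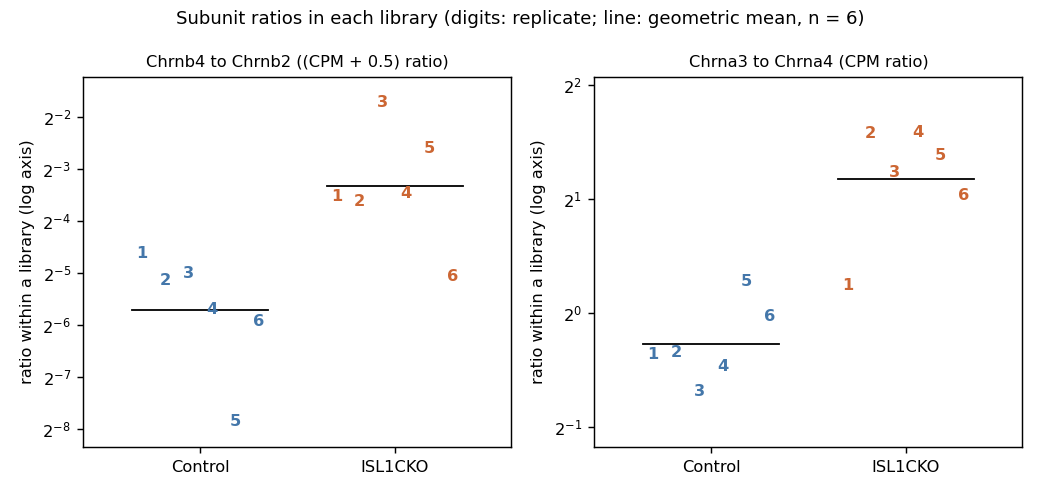
Ratio of Chrnb4 to Chrnb2 (left, with 0.5 CPM added) and of Chrna3 to Chrna4 (right, in CPM) in each library on a log axis, with digits marking replicates and lines geometric means of 6. Both ratios are higher in the ISL1CKO libraries, with ISL1CKO 6 among the controls on the left and ISL1CKO 1 on the right.

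After each genotype mean was subtracted, Pearson's r of log2(CPM + 1) over the 12 libraries ran from -0.439 for Chrna6 and Chrnb4 to 0.518 for Chrna3 and Chrnb2 among the 15 pairs of tested subunit genes, as a description. It was 0.459 for Chrna3 and Chrna7, 0.441 for Chrna4 and Chrnb2 and 0.016 for Chrna3 and Chrnb4. For Chrna3, the genes most alike among 9135 compared were Psmd11 (r = 0.919), Rpe (0.896) and Elmod3 (0.890). For Chrna4 they were Igsf21 (r = 0.894), Galnt13 (0.865) and Rab2b (0.849), and for Chrnb2 Pcdhb3 (r = 0.935), Osgin2 (0.910) and Cep85 (0.908). For Chrnb4 they were As3mt (r = 0.900), Exoc3 (0.900) and Slc7a14 (0.879) among 9136. These are the highest of all the values compared, over 12 libraries, with no test.

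Beyond the neuronal subunits, Chrna9 rose. It encodes a subunit of the hair cell receptor and lies on chromosome 5 at 65934921 to 65977326, with 4930480C01Rik and Gm43771 overlapping on the same strand. Chrna9 was at 0.166, 2.29, 0.167, 6.96, 4.28 and 3.22 CPM in controls 1 to 6. It was at 23.0, 19.1, 15.1, 30.6, 31.7 and 32.4 CPM in the libraries labelled ISL1CKO, all above every control. The log2FC of Chrna9 was 3.14, SE 0.63 (edgeR adjusted p = 0.00439), and without ISL1CKO 2, 3 and 5 it was 3.32 (edgeR adjusted p = 0.0342).

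Of the other nicotinic subunit genes, the fetal muscle subunit gene Chrng was at 1.19 ± 1.26 and 4.70 ± 2.36 CPM in controls and the others (SD, n = 6), a log2FC of 1.97 that did not pass (edgeR adjusted p = 0.142). Chrna1, Chrnb1 and Chrne were at most 2.99 CPM and not tested, and Chrna2, Chrna10 and Chrnd were not analysed here. In this list 1 of 2 tested genes was called, with a median log2FC of 2.55. Of 6 skeletal muscle markers, 4 were tested and 2 rose along with Chrna9, Actc1 (log2FC 1.71, edgeR adjusted p = 0.00914) and Myh3 (4.41, edgeR adjusted p = 0.00229), also without ISL1CKO 2, 3 and 5 (0.0201 and 0.0182). The other two did not pass, Acta1 with a log2FC of -1.33 (edgeR adjusted p = 0.109) and Tnnt1 with 0.017 (edgeR adjusted p = 0.987). The summed level of the list, mostly Actc1, was 28.1 to 93.0 CPM in controls and 76.1 to 273 CPM in the others. The muscle factor gene Myod1 had 15 counts in all controls and 98 in all libraries labelled ISL1CKO, and Myog 14 and 68. Myod1 was at 0 in ISL1CKO 4 and 6, where Chrna9 was at 30.6 and 32.4 CPM. In the same libraries Myog was at 0.373 and 3.81 CPM, Actc1 at 129 and 247 CPM and Myh3 at 20.2 and 17.5 CPM. Of the hair cell markers 0 of 3 tested were called, Myo6 with a log2FC of 0.0084 (edgeR adjusted p = 0.986), Myo7a with -0.63 (0.602) and Otof with -0.40 (0.818). In the libraries labelled ISL1CKO, Myo6 was at 280 to 574 CPM, Myo7a at 1.68 to 15.2 CPM and Otof at 0.365 to 3.69 CPM. Pou4f3 was at 0 to 0.305 CPM and Gfi1 at most 0.317 CPM in these libraries, and Atoh1 was not analysed. The part of muscle RNA in the Chrna9 result was not tested.

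**Figure D4:**
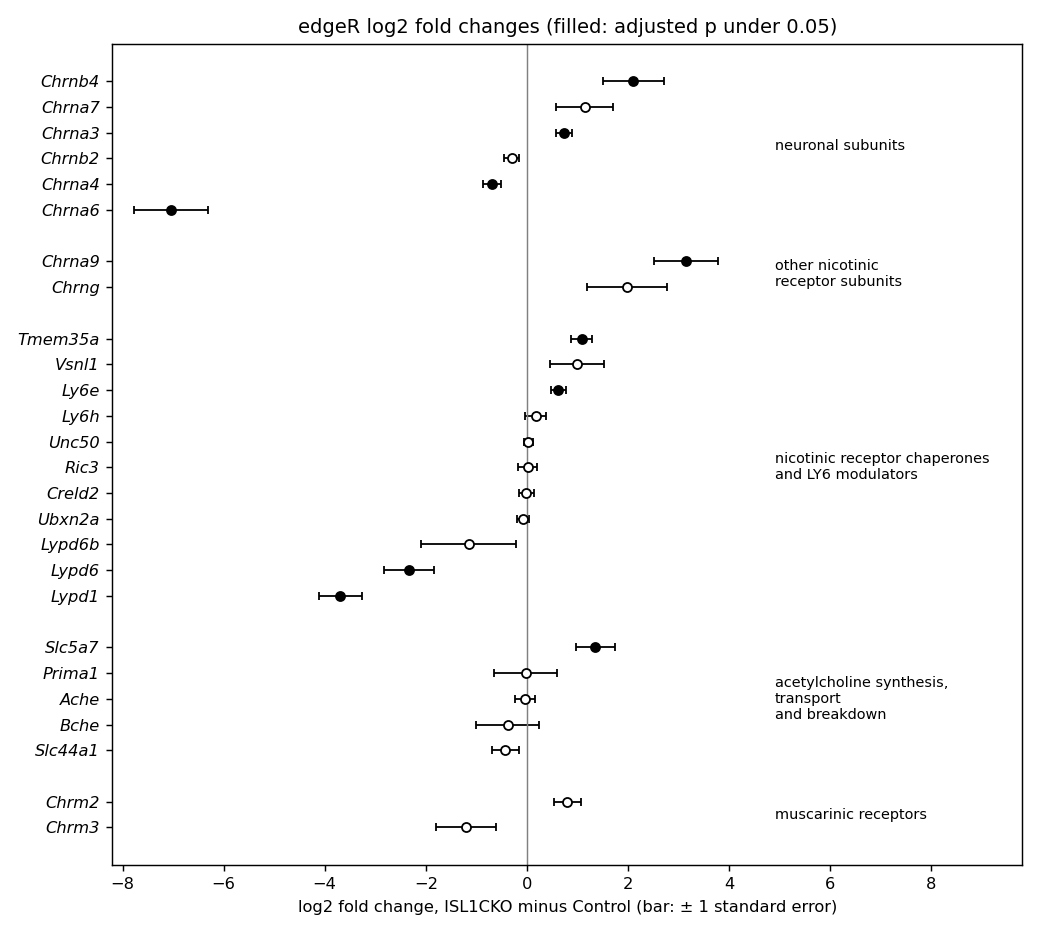
Log2 fold change of ISL1CKO over control with ± 1 standard error (horizontal axis) for the 6 tested subunit genes and the 20 tested genes of 4 other cholinergic lists, filled where the edgeR adjusted p was under 0.05. Filled points lie on both sides of 0 among the subunits and among the chaperones and LY6 modulators.

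Among 14 genes for nicotinic receptor chaperones and LY6 modulators, which help subunits assemble or bind the finished receptor, 12 were analysed and 11 tested. Of these, 2 fell and 2 rose, around a median log2FC of 0.011. Lypd1, whose membrane-anchored product (also called Lynx2) damps nicotinic receptors, fell the most. Lypd1 was at 78.6, 34.0, 33.0, 43.3, 37.3 and 34.6 CPM in controls 1 to 6 and at 6.65, 1.94, 3.54, 5.53, 1.39 and 1.14 CPM in the libraries labelled ISL1CKO. The groups lay far apart, with a log2FC of -3.69, SE 0.43 (edgeR adjusted p = 4.43e-05), and without ISL1CKO 2, 3 and 5 it was -3.30 (edgeR adjusted p = 0.00352). Gpr39 overlaps Lypd1 on the opposite strand.

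Lypd6, a related LY6 protein that binds nicotinic receptors, fell as well. It ranged from 4.34 to 30.3 CPM in controls with a median of 9.93, and from 0.802 to 3.41 CPM in the others with a median of 2.53, with no overlap. The log2FC of Lypd6 was -2.33, SE 0.49 (edgeR adjusted p = 0.00599), and the call was lost without ISL1CKO 2, 3 and 5 (edgeR adjusted p = 0.0842).

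Tmem35a, which encodes the chaperone NACHO needed for the assembly of Chrna7 and other nicotinic receptors, rose. Its level was 25.5 ± 8.64 CPM in controls and 54.0 ± 9.79 CPM in the libraries labelled ISL1CKO (SD, n = 6), where ISL1CKO 4 lay just below control 1. The log2FC of Tmem35a was 1.08, SE 0.21 (edgeR adjusted p = 0.00293), and 1.00 without ISL1CKO 2, 3 and 5 (edgeR adjusted p = 0.0569). Ly6e rose from 60.1 ± 10.1 to 92.5 ± 16.5 CPM (SD, n = 6), for a log2FC of 0.62 (edgeR adjusted p = 0.00934), lost without the same 3 libraries (0.0628), with the marker covariates (0.0768) and with the replicate block (0.0537). Over all 12 libraries the most abundant genes of the list were Unc50 and Ly6e, although in controls Ly6h at 67.2 CPM and Ubxn2a at 63.6 CPM were above Ly6e. Unc50 was at 91.8 ± 5.37 and 93.4 ± 9.32 CPM (SD, n = 6), for a log2FC of 0.024 (edgeR adjusted p = 0.905).

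**Figure D5:**
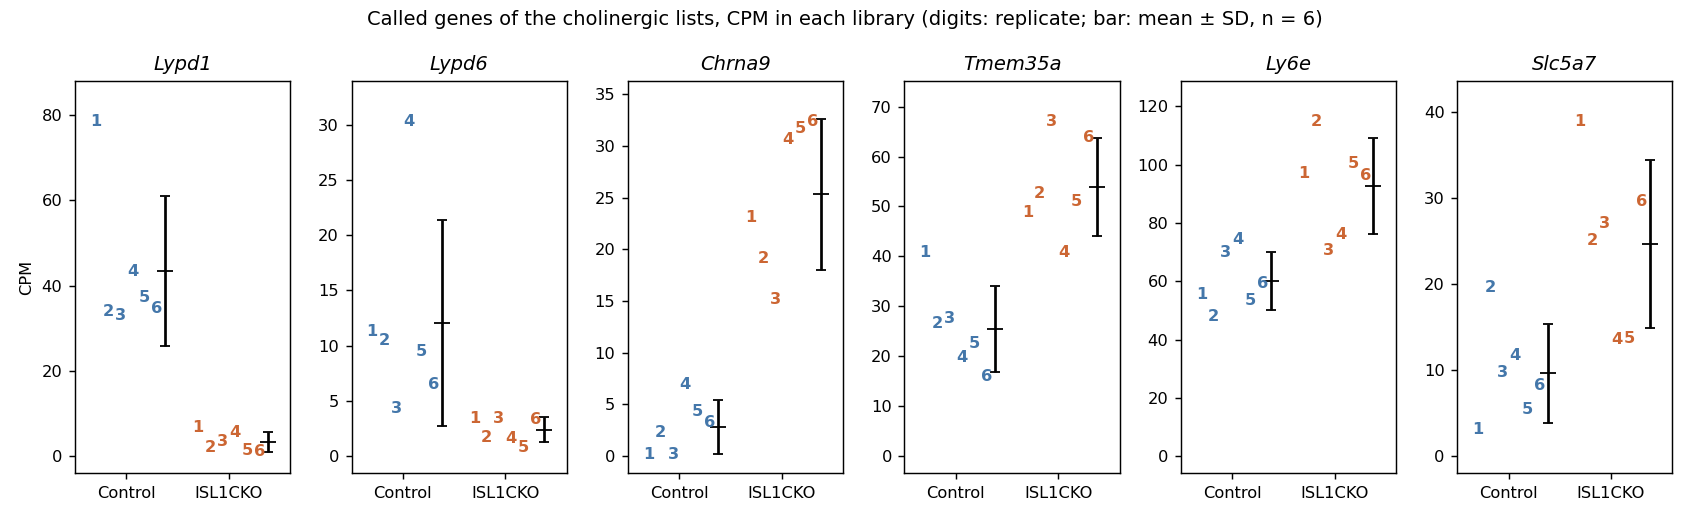
Level in CPM (vertical axis, own linear scale) of the 6 called genes of the other cholinergic lists in each library, with digits marking replicates and bars the mean ± SD of 6. Lypd1, Lypd6 and Chrna9 do not overlap between groups, and Tmem35a, Ly6e and Slc5a7 do.

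Of 8 genes for acetylcholine synthesis, transport and breakdown, 5 were tested and 1 was called, with a median log2FC of -0.040. Slc5a7, the high-affinity choline transporter of cholinergic neurons, ranged from 3.07 to 19.6 CPM in controls, with a median of 9.02, and from 13.5 to 39.0 CPM in the others, with a median of 26.0. Its log2FC was 1.35, SE 0.39 (edgeR adjusted p = 0.0386). The Slc5a7 call was lost in 9 of 12 fits that left out 1 library, each except control 2 and ISL1CKO 4 and 5 (edgeR adjusted p of at most 0.0851), and without ISL1CKO 2, 3 and 5 (0.123). It was also lost with no filter (0.0523), with the replicate block (0.0648) and with the marker covariates (0.0565). Named for their roles after their values were seen, Chat, the acetylcholine-forming enzyme, had at most 4 counts in any library, and Slc18a3, the vesicular acetylcholine transporter, at most 15. Ache, which breaks acetylcholine down, was the most abundant of the list at 44.1 ± 10.4 and 42.9 ± 12.7 CPM (SD, n = 6; edgeR adjusted p = 0.928), and over all 12 libraries Slc5a7 came next, although in controls Slc44a1 at 19.6 CPM and Bche at 9.90 CPM were above its mean of 9.63 CPM.

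Because Chrna3 and Chrnb4 are also expressed in autonomic neurons, the markers of that type were read. Of 6 such genes, 2 were tested in edgeR, Th, the rate-limiting enzyme of catecholamine synthesis (log2FC -0.36, adjusted p = 0.895), and Gata2, a transcription factor gene (log2FC 0.65, adjusted p = 0.778). Of these, 0 were called and 0 had an unadjusted p under 0.05. Single genes of other marker lists did move. Of 4 vestibular neuron markers, 1 was tested, and this gene, Calb1, fell from 489.9 ± 134 to 97.0 ± 85.9 CPM (SD, n = 6; edgeR adjusted p = 0.0228). Those not tested were low, with means in controls and the others of 0.256 and 1.23 CPM for Tlx3, 0.414 and 0.698 CPM for Calb2 and 0.561 and 0.340 CPM for Sall3. Of 8 mesenchyme markers, 4 were tested and 2 rose, Tbx18 with a log2FC of 5.18 (edgeR adjusted p = 3.49e-04) and Col3a1 with 2.40 (edgeR adjusted p = 0.00241). The other tested ones did not pass, Col1a2 with a log2FC of 1.83 (edgeR adjusted p = 0.0602) and Pou3f4 with -0.95 (edgeR adjusted p = 0.143). Among those not tested, Twist1 was lower, at 0.250 to 2.37 CPM in controls and 0 to 0.0776 CPM in the others. Prrx1 went from a mean of 0.337 to 4.72 CPM. Without ISL1CKO 2, 3 and 5 the calls of Calb1 (edgeR adjusted p = 0.0160) and Tbx18 (0.0117) held and that of Col3a1 did not (0.0577). In that fit Twist1 was tested and called lower (log2FC -6.88, edgeR adjusted p = 0.0260), and Tlx3 was not called (log2FC 2.59, edgeR adjusted p = 0.202). The summed mesenchyme level was 38.4 to 84.3 CPM in controls and 70.3 to 120.5 CPM in the others, and the part of these cells in the results was not tested.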

How the data were processed

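RNA was measured in 12 libraries of sorted neurons, 6 per genotype. The authors deposited whole-number counts per Ensembl gene, not normalized. The submitters' processing notes name cutadapt 1.18, Bowtie 1.2.2, STAR 2.7.0c, featureCounts and GRCm38.p6. Use of strand and the annotation are not given in the sources used here, so overlapping genes are uncertain. Each column was assigned through the genotype and number in its name. Symbols matched 25620 identifiers. Coordinates and exon lengths are from GENCODE release M21 on GRCm38. No 2 libraries of a group agreed within counting noise.

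edgeR 4.0.16 under R 4.3.3 was fitted to all genes kept by filterByExpr (minimum count 10) with TMM scaling and the robust quasi-likelihood F-test, without covariates and with Benjamini-Hochberg adjustment over 14813 genes. Standard errors are the absolute log2 fold change divided by the square root of F. Ratios and orders used exact permutation and sign-flip tests, with pseudocounts of 0.5 CPM and 0.01 CPM per kb. Pearson's r used log2(CPM + 1) of protein-coding genes whose average log2 CPM reached 3. The edgeR, DESeq2 and limma-voom fits were also run on simulated counts. Alternatives included DESeq2 1.42.0, limma-voom (limma 3.58.1), other scalings and filters, covariates, a replicate block and left-out libraries. The replicate number did not pair the libraries. Named genes were the 8 subunit genes and, from each cholinergic list, the called and the 2 most abundant genes. The members and lists were chosen with earlier results of these data known. A marker gene is not reported here.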

Additional observations from a re-analysis of the deposited data

Results flagged for a closer look

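Dixon's gap test was read for 30 sets of 6 libraries, each set being 1 gene in 1 genotype. It marked 3 sets, and about 1.5 would be marked by chance. Chrna6 was at 0.0762 CPM in ISL1CKO 6, from 1 count, and at 0 in the other libraries labelled ISL1CKO. Lypd1 was at 78.6 CPM in control 1, against 33.0 to 43.3 CPM in the other controls. Lypd6 was at 30.3 CPM in control 4, against 4.34 to 11.3 CPM in the other controls, and without control 4 its log2 fold change was -1.82 (edgeR adjusted p = 0.0156).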

How the results depend on the processing

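The direction of each of the 12 gene-level log2 fold changes held under every alternative run. The count of 4 called subunit genes was 2 with the marker covariates and 1 without the 3 libraries holding Xist and Y-linked transcripts, and 2 to 4 with 1 library left out. The count of 6 called genes in the other lists was 2 without those 3 libraries and 5 to 7 with 1 library left out. The Chrnb4 to Chrnb2 difference was 2.38 with the replicate block (exact sign-flip test, adjusted p = 0.0521), 1.70 without the 3 libraries, and 1.95 to 2.73 with 1 left out. The Chrna3 to Chrnb4 difference ran from -1.64 to -0.89 with 1 left out. The Chrna7 to Chrna3 difference of -0.00069 changed sign with a pseudocount of 0.1 CPM (0.15), without the 3 libraries (0.038) and within -0.15 to 0.22 with 1 left out. The cause of these changes was not tested beyond the smaller groups. Deviations of same-numbered libraries correlated at -0.056 to 0.155, and 2 of 6 controls matched their own number best. The block moved the subunit count from 4 to 3 and the count over all genes from 1511 to 1450. Alternatives with a mean of 5 CPM gave no value for Chrna6 and Chrna7. Depth limits Chrna5 and Chrnb3, which did not pass the filter on low counts.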

Other observations

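Muscarinic receptor genes, the other class of acetylcholine receptor, were also read. Of 5, 4 were analysed, 2 tested and 0 called in edgeR's quasi-likelihood test, with 1 at an unadjusted p under 0.05. That gene was Chrm2, with a log2 fold change of 0.80 and a standard error of 0.27 (edgeR adjusted p = 0.0777), from 8.18 ± 2.46 CPM in controls to 14.3 ± 4.56 CPM in the libraries labelled ISL1CKO (SD, n = 6). Chrm3 was at 4.65 ± 2.33 and 2.01 ± 2.07 CPM (SD, n = 6; edgeR adjusted p = 0.242). Chrm1, chosen after its values were seen, was at 0.713 to 1.19 CPM in controls and 0.388 to 0.686 CPM in the others, too low to be tested. Colq, the collagen tail of acetylcholinesterase, likewise singled out afterwards, had at most 6 counts in controls and up to 118 in ISL1CKO 3. It was not tested with the filter on low counts.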
